A study of Mus musculus with 6 samples.

Results

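Polycomb proteins form the chromatin complexes that keep developmental genes silent. Polycomb repressive complex 2 methylates histone H3 through *Ezh1* or *Ezh2*, and Polycomb repressive complex 1 ubiquitinates histone H2A through *Ring1* or *Rnf2*. Each complex has a core that carries the catalysis and accessory subunits that steer it to chromatin or change its activity. The long noncoding RNA *Hotair*, which lies in the Hoxc cluster, has been linked to complex 2 in earlier work, so the comparison asks whether the genes encoding the complexes themselves were expressed differently where *Hotair* was absent. The list held 30 genes, 11 of complex 2 and 19 of complex 1, listed for their known membership. A gene was measured by the probe set, a group of short array probes for 1 transcript, that was annotated to it alone and had the highest mean over all arrays. In this way 29 of the 30 genes were measured, out of 18193 genes on the arrays. *Rybp*, a subunit of variant complex 1, was left out because its 2 probe sets were annotated jointly with its pseudogene. By the array maker's naming the probe sets used for *Rbbp4*, *Phc2*, *Suz12*, *Jarid2*, *Cbx6* and *Kdm2b* may also bind other transcripts.

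The samples were total RNA of tail tip fibroblasts from newborn mice, backcrossed to C57BL6 with a stated similarity of over 97%, on 6 Affymetrix whole-genome mouse arrays. Of these, 3 were wild type for *Hotair* and 3 were *Hotair* knockout, and both genotypes share the strain, tissue and age. The labels do not give the extent of the deleted allele, nor whether the arrays of a genotype came from separate animals, so p-values cover only the spread between these samples, and that may be technical. *Hotair* itself was not analysed here and thus gave no check of the genotype labels. Values are on a log2 scale where 1 unit is a factor of 2. Of 12 fibroblast markers, 8 were above 10 on all 6 arrays, and the median of the list was between 11.87 and 12.81. The median of the list moved with genotype: relative to each gene's mean it was −0.42 to 0.10 in wild type and 0.15 to 0.26 in knockout, which do not overlap. At an unadjusted p under 0.05, 3 of the 12 were higher in knockout (4.01% of all genes were) and 0 lower (2.67%), though 0 passed after adjustment by limma. These were the matrix genes *Dcn* (3.10 ± 1.08), *Lum* (2.64 ± 1.06) and *Col3a1* (0.59 ± 0.23). The markers did not all rise: 10 of the 12 differences were above 0 and 2 below. The latter were *Vim* (−0.24 ± 0.13), with every knockout array below every wild-type array, and *Fn1* (−0.18 ± 0.25). *Thy1* measured 12.15, 4.65 and 7.17 in wild type, against 11.71, 10.54 and 10.28 in knockout. Like *Dcn* and *Lum*, it was lowest in wild-type replicate 2.

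The arrays numbered 1 stood apart in both genotypes. The median of 24 proliferation genes, each relative to its mean over the 6 arrays, was −1.47 in wild-type replicate 1 and −1.18 in knockout replicate 1, against 0.39 to 0.995 on the other 4 arrays. *Mki67*, a marker of dividing cells, measured 5.80 and 7.99 on the replicate 1 arrays and 11.35 to 11.98 on the rest. The macrophage and leukocyte list of 10 genes was highest in knockout replicate 1 (0.57, against −0.35 to 0.18 elsewhere), where 6 of the 10 genes had their highest value. *Tyrobp*, an adaptor of myeloid cells, reached 9.14 there against 4.88 to 5.45 elsewhere, whereas the leukocyte marker *Ptprc* (4.23) and *Aif1* (4.25) were within the range of the other arrays. *Cd14* (7.89) was below every wild-type array (8.17 to 8.89) but above knockout replicates 2 and 3 (5.87 and 5.75). Knockout replicate 1 also had the largest 3′ minus 5′ difference of the *Gapdh* control probe sets, which grows as RNA degrades (0.75, against at most −0.026). The part of these differences in the results that follow was not tested. In bulk RNA of this kind, fewer cells of a type and less RNA per cell cannot be told apart. Each result is therefore given with these arrays and, where they matter, without them.

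E2F factors, which switch on genes for DNA replication when cells enter the cycle, are known regulators of *Ezh2*, so the promoters of the subunits were searched for E2F motifs. RefSeq windows (assembly GRCm38.p6) from 250 bases before to 50 after the gene start were at hand for 26 of the 30 genes. Motifs TTTCCCGC, TTTGGCGC, TTTCGCGC and TTTGCCGC were sought on both strands, with no overlapping matches among the subunits. They were found in windows of 3 genes, *Ezh2*, *Suz12* and *Phf19*, which is 3 of 38 windows. Of all 32851 windows of this length 2.26% hold such a motif. The stretches of these genes are shown with the motif in capitals, together with the 100 bases before the start of *Ezh1*, the paralogue of *Ezh2*, whose window holds none.
*Ezh2* (chr6:47595011-47595130, minus strand, 100 bases before the start and the first 20 after it): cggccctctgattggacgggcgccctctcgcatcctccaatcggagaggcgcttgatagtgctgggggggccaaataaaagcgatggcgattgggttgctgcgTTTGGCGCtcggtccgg
*Suz12* (chr11:79992856-79992975, plus strand): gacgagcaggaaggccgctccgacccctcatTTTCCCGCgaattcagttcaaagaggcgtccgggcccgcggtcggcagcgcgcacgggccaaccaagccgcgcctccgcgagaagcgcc
*Phf19* (chr2:34914107-34914226, minus strand): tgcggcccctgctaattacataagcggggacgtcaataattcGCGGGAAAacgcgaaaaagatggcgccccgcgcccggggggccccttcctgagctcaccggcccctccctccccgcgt
*Ezh1* (chr11:101226464-101226563, minus strand): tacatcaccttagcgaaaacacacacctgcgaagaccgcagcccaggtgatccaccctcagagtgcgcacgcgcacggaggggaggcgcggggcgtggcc
The motif of *Ezh2* begins at base 4 after the start, that of *Suz12* at −219 and that of *Phf19* at −208, where it lies on the opposite strand. The cell cycle element TTTGAA or TTCGAA, likewise on both strands, was in windows of 6 of the 26 genes (23.1%; *Aebp2*, *Cbx7*, *Eed*, *Mtf2*, *Scmh1* and *Suz12*), against 21.7% of all genes. By windows these were 6 of 38, against 19.2%. A match describes these letters and shows no binding.

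No subunit passed the test between genotypes. By limma with Benjamini-Hochberg adjustment over all 18193 genes, 0 of 29 subunits had an adjusted p under 0.05, as had 0 of all genes (0%), and the smallest adjusted p of any gene was 0.743. At an unadjusted p under 0.05 there were 2 of 29 subunits (6.9%), *Cbx6* and *Cbx8*, against 6.68% of all genes. For 4 subunits the genotypes did not overlap, which is 13.8% against 9.93% of all genes: in 3, *Rbbp4*, *Pcgf2* and *Cbx6*, knockout was above (5.56% of all genes) and in 1, *Cbx8*, below (4.38%). Knockout and wild type differed in the same direction within all 3 replicate numbers for 15 of 29 subunits (51.7%), against 30.5% of all genes. The design cannot take an exact permutation test of a single gene below p = 0.1. When limma took the replicate number as a block it again called 0 subunits (0%), and 5 of 29 had an unadjusted p under 0.05, *Mtf2*, *Rnf2*, *Cbx2* and *Cbx6* above and *Scmh1* below, against 11.1% of all genes. With 1 array left out 0 subunits were called, and other genes were called only without knockout replicate 1 (0.478% of all genes). Without that array 8 of 29 had an unadjusted p under 0.05 (15.7% of all genes) and 16 had groups that do not overlap (33.0%). Without wild-type replicate 1 these were 1 (14.1%) and 9 (32.3%), and without wild-type replicate 2 they were 0 (3.21%) and 5 (15.7%). Without wild-type replicate 3 they stayed at 2 (3.59%) and 4 (16.1%). They were 0 (2.54%) and 4 (14.9%) without knockout replicate 2, and 1 (2.35%) and 6 (14.6%) without knockout replicate 3. Differences below are knockout minus wild type on the log2 scale, with the SE of the fit.

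**Figure D1:**
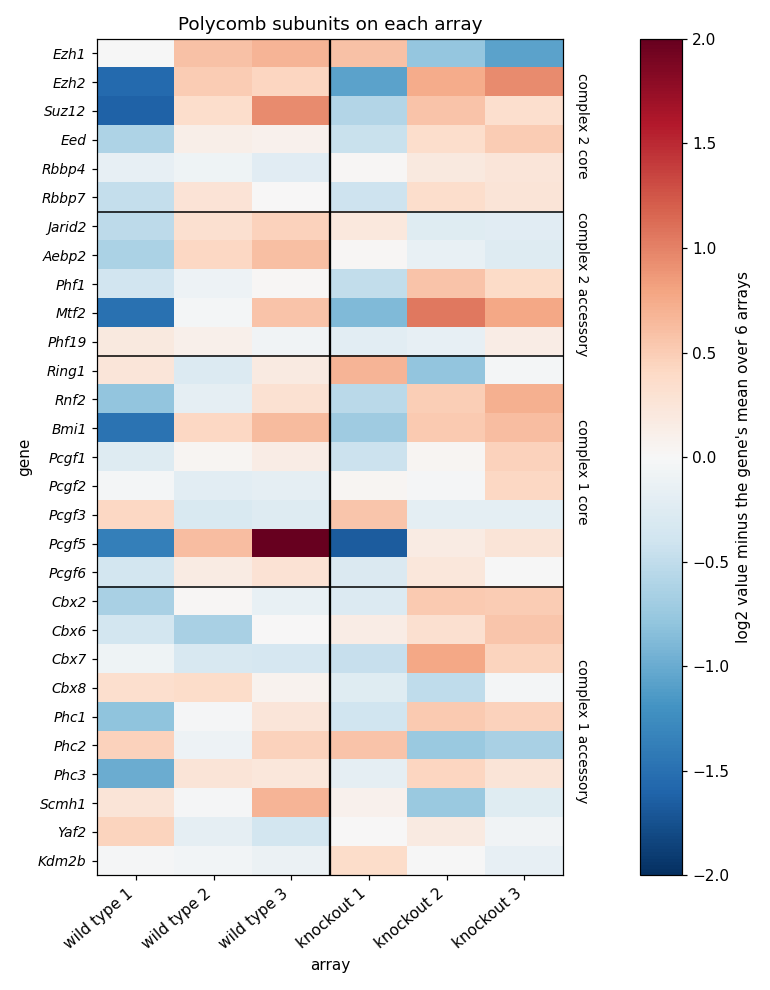
Each row is 1 of the 29 measured subunits, each column 1 of the 6 arrays, and the colour is the log2 value minus the gene's mean over the 6 arrays, with lines between roles and genotypes. *Ezh2*, *Suz12*, *Mtf2*, *Bmi1* and *Pcgf5* are low on the replicate 1 arrays of both genotypes, whereas *Ezh1* and *Phc2* are low in knockout replicates 2 and 3.

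The catalytic subunits of complex 2, *Ezh1* and *Ezh2*, were both lowest in replicate 1 within wild type, but on different arrays within knockout. *Ezh2*, the methyltransferase that prevails in dividing cells, measured 8.48, 10.54 and 10.47 in wild-type replicates 1 to 3 and 8.96, 10.78 and 10.97 in knockout. The genotypes overlap, and the low value of each is replicate 1, at −2.03 relative to the mean of the other wild-type arrays and at −1.92 relative to that of the other knockout arrays. Its difference was 0.41 ± 0.78 (95% interval −1.51 to 2.32, n = 3 per genotype). Within replicate numbers it was higher in knockout each time, by 0.48, 0.23 and 0.50, and with the replicate number as a block its SE was 0.15 (limma unadjusted p = 0.0507, adjusted p = 0.449). *Ezh1*, the related methyltransferase that prevails in resting tissue, measured 8.04, 8.64 and 8.73 in wild type, against 8.65, 7.29 and 6.98 in knockout. Wild-type replicate 1 is at −0.64 relative to the mean of the other wild-type arrays. Knockout replicates 2 and 3 are below every wild-type array, while knockout replicate 1 lies within the wild-type range. The difference was −0.83 ± 0.47 (limma adjusted p = 0.821) over all arrays and −1.55 ± 0.17 (limma adjusted p = 0.0103) without both replicate 1 arrays. The latter fit was chosen after the values were known, and 14.0% of all genes passed in it. A second probe set of *Ezh1* differed by −0.43, with knockout values of 7.04, 6.44 and 6.86 against 6.99 to 7.47, and its 2 dim probe sets by −0.14 and 0.01.

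The remaining core subunits of complex 2 overlapped between genotypes, except *Rbbp4*. *Suz12*, the scaffold of the complex, measured 8.54, 10.51 and 11.10 in wild type, against 9.57, 10.73 and 10.49 in knockout, a difference of 0.21 ± 0.71. The knockout values lie inside the wild-type range, and 5 of its 6 probe sets had the same sign. *Eed*, which reads the methyl mark, measured 9.73, 10.47 and 10.44 against 9.90, 10.70 and 10.86, a difference of 0.28 ± 0.34. Like *Ezh2*, it was lowest in replicate 1 of each genotype, though at −0.72 and −0.88 relative to the other arrays only. The histone chaperone *Rbbp7* measured 12.37, 13.12 and 12.85 against 12.43, 13.19 and 13.10, a difference of 0.13 ± 0.29. Its paralogue *Rbbp4* measured 12.76, 12.84 and 12.70 in wild type, against 12.94, 13.12 and 13.16 in knockout. These groups do not overlap, yet the difference of 0.31 ± 0.13 did not pass (limma adjusted p = 0.76). The other 3 probe sets of *Rbbp4* overlapped between genotypes and differed by 0.03 to 0.39. *Rbbp4* and *Rbbp7* also serve other chromatin complexes.

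No accessory subunit of complex 2 passed over all 6 arrays. *Jarid2* and *Aebp2* define one subtype, and the Polycomb-like proteins *Phf1*, *Mtf2* and *Phf19* the other. *Jarid2* measured 8.16, 9.002 and 9.14 in wild type, against 8.89, 8.44 and 8.46 in knockout (−0.17 ± 0.30). *Aebp2* measured 10.62, 11.66 and 11.85 against 11.27, 11.10 and 10.999 (−0.25 ± 0.34). For both genes the lowest array was wild-type replicate 1, and knockout replicates 2 and 3 lay below wild-type replicates 2 and 3. Without both replicate 1 arrays *Aebp2* passed at −0.71 ± 0.16 (limma adjusted p = 0.0439), and *Jarid2*, at −0.62 ± 0.15, did not (limma adjusted p = 0.0517). In that fit, chosen after the values were known, 14.0% of all genes passed. Of the 5 probe sets of *Aebp2* 4 were negative, from −0.78 to −0.23, and the dimmest was at 0.14.

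*Mtf2* measured 8.47, 9.93 and 10.53 in wild type, against 9.08, 11.02 and 10.72 in knockout. It was higher in knockout within each replicate number, by 0.61, 1.09 and 0.19, and the difference of 0.63 ± 0.72 was smaller than the spread over replicates (SD 1.06 and 1.05). *Phf1* measured 7.37, 7.66 and 7.77 against 7.27, 8.32 and 8.15 (0.31 ± 0.31), with knockout replicate 1 the lowest of all arrays. *Phf19* measured 6.52, 6.43 and 6.26 against 6.12, 6.16 and 6.47 (−0.16 ± 0.16). Its second probe set went the other way (0.36), measured 5.06, 5.49 and 5.69 against 4.73, 6.005 and 6.60, and was lowest in replicate 1 of each genotype, so the pattern of *Phf19* depends on the probe set. Over the 5 accessory subunits the median difference was −0.16, against 0.24 for the 6 core subunits and 0.0067 for all genes tested. The sign of the accessory median was not stable: it was 0.10 with the mean of all probe sets of a gene, 0.31 with the probe set of largest SD, 0.070 with dim genes left out, 0.014 without wild-type replicate 3, and 0.61, −0.27 and 0.19 within replicate numbers 1, 2 and 3. The core median was −0.17 without wild-type replicate 1.

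The catalytic pair of complex 1 also diverged over the arrays. *Rnf2*, the main ubiquitin ligase, measured 9.23, 9.83 and 10.32 in wild type, against 9.48, 10.52 and 10.74 in knockout. Within each replicate number knockout was higher, by 0.26, 0.69 and 0.42, but the groups overlap and the difference was 0.45 ± 0.43. A second bright probe set differed by 0.44, and the 3 others, all dim, by 0.22, 0.040 and −0.0049. *Ring1*, its paralogue, measured 7.88, 7.36 and 7.81 against 8.31, 6.84 and 7.60 (−0.10 ± 0.39), and the highest and the lowest array were both knockout. On the replicate 1 arrays *Rnf2* was at −0.85 and −1.15 relative to the other arrays of its genotype, and *Ring1* at 0.29 and 1.09.

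The Pcgf subunits, which pair with the ligases and define the variants of complex 1, differed in sign. *Bmi1*, a subunit of canonical complex 1 known for repressing the *Cdkn2a* locus, measured 9.30, 11.18 and 11.40 in wild type, against 10.06, 11.29 and 11.39 in knockout. The difference of 0.29 ± 0.67 was 0.76, 0.11 and −0.01 within the replicate numbers. Its paralogue *Pcgf2* was dim, at 5.30, 5.14 and 5.17 against 5.38, 5.31 and 5.76. Its groups do not overlap, but the difference of 0.28 ± 0.17 did not pass (limma adjusted p = 0.822), and its other probe set was at −0.026. *Pcgf1*, which works with *Kdm2b*, measured 6.86, 7.15 and 7.25 against 6.68, 7.14 and 7.57, a difference of 0.05 ± 0.26.

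*Pcgf5*, with the largest SE of the 29 subunits, measured 8.67, 10.65 and 12.01 in wild type, against 8.36, 10.20 and 10.28 in knockout. Knockout was lower within each replicate number, by −0.30, −0.45 and −1.73, and all 3 probe sets were negative (−0.83, −0.48 and −0.62). The difference of −0.83 ± 0.96 had a 95% interval from −3.20 to 1.54, and without wild-type replicate 3 it was −0.043. *Pcgf3*, the closest relative of *Pcgf5*, had the opposite replicate pattern, with 10.94, 10.22 and 10.27 against 11.09, 10.34 and 10.34. Replicate 1 was thus its highest array in each genotype, by 0.70 and 0.75, and the genotypes differed by 0.11 ± 0.31, with its 2 dim probe sets at −0.13 and −0.19. *Pcgf6* measured 8.80, 9.34 and 9.46 against 8.88, 9.40 and 9.16 (−0.06 ± 0.24), and 1 of its 3 probe sets was positive (0.24).

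Among the Cbx proteins, which anchor canonical complex 1 to methylated histone H3, *Cbx6* and *Cbx8* gave the smallest p-values of the list. *Cbx2* and *Cbx7* did not (limma unadjusted p = 0.135 and 0.188) and came after *Rbbp4* (0.0614) and *Scmh1* (0.0824). *Cbx6* measured 9.79, 9.51 and 10.18 in wild type, against 10.31, 10.48 and 10.73 in knockout, with every knockout array above every wild-type array. Its difference was 0.68 ± 0.22 (unadjusted p = 0.0232, limma adjusted p = 0.743). The second probe set repeated this without overlap, at 9.40, 9.78 and 9.86 against 10.12, 10.40 and 10.75. *Cbx8* measured 7.33, 7.38 and 7.08 in wild type, against 6.77, 6.50 and 6.96 in knockout, with every knockout array below. Its difference was −0.52 ± 0.18 (unadjusted p = 0.0274, limma adjusted p = 0.743), and a second, dim probe set was at −0.030.

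Each of these genes has another Cbx gene of the list beside it in the genome. On chromosome 11 no protein-coding gene lies between *Cbx2* and *Cbx8*, and their differences had opposite signs. *Cbx2* measured 6.48, 7.15 and 6.99 against 6.86, 7.66 and 7.65, and was higher in knockout within each replicate number, by 0.38, 0.51 and 0.66 (0.52 ± 0.30). On chromosome 15 only *Apobec3* lies between *Cbx6* and *Cbx7*. *Cbx7* measured 5.79, 5.56 and 5.54 against 5.41, 6.65 and 6.32, so knockout replicate 1 was the lowest array and knockout replicates 2 and 3 the highest. Its difference was 0.50 ± 0.33 over all arrays and 0.93 ± 0.17 without both replicate 1 arrays, where it passed (limma adjusted p = 0.0286). In that fit, chosen after the values were known, 14.0% of all genes passed. The probe set used for *Cbx7* was itself dim, with values near the array medians of 5.57 to 5.68. Its other probe sets were dimmer still and differed by 0.094 and 0.00022 over all arrays.

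**Figure D2:**
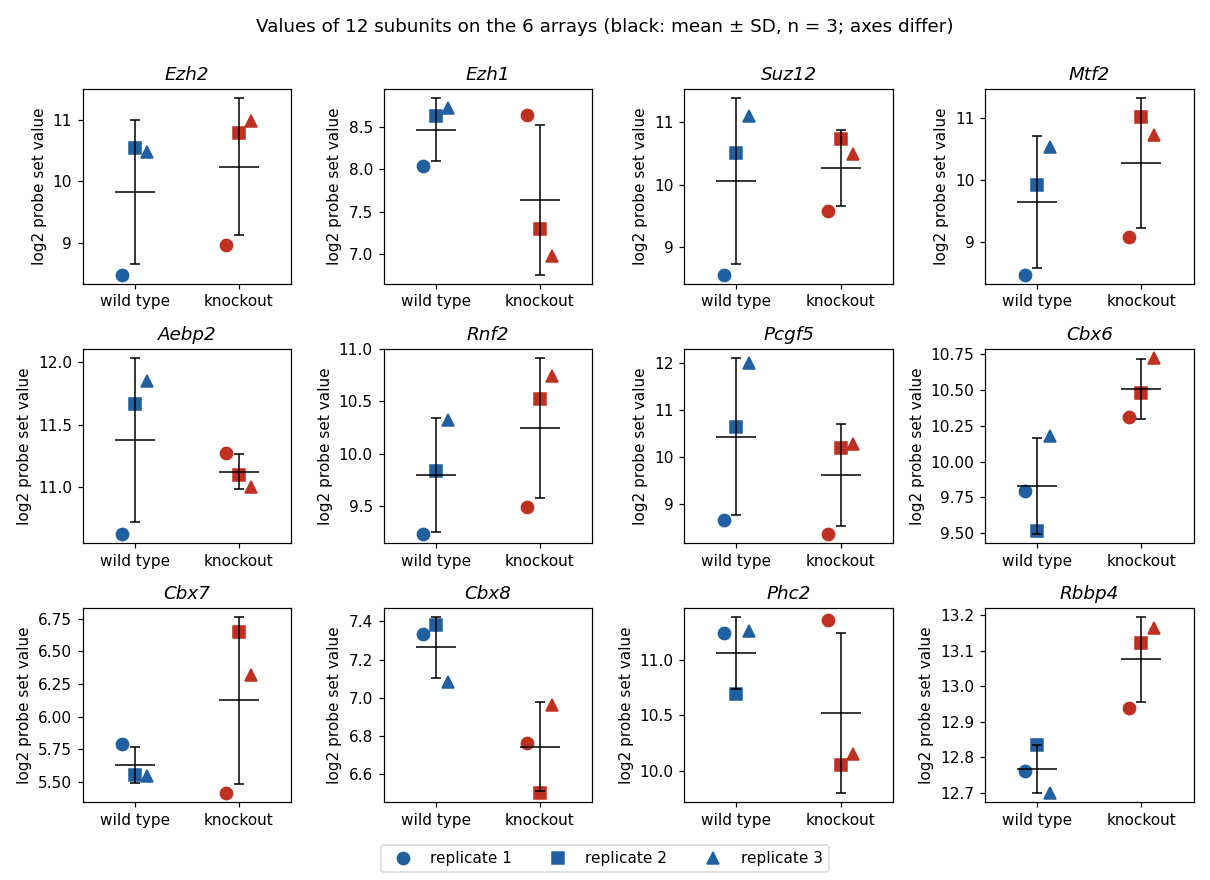
Log2 probe set values of 12 subunits, with 1 point per array, circles, squares and triangles for replicates 1, 2 and 3, and black bars for the mean ± SD of 3 arrays; the vertical axes differ. *Cbx6*, *Cbx8* and *Rbbp4* have groups that do not overlap, and in *Ezh2*, *Suz12*, *Mtf2*, *Rnf2* and *Pcgf5* replicate 1 is the lowest array of each genotype.

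The Polyhomeotic and Scm subunits, which join complexes into larger assemblies through their SAM domains, differed in sign. *Phc1* measured 8.01, 8.79 and 9.06 against 8.42, 9.34 and 9.28 (0.40 ± 0.38), and *Phc3* 8.57, 9.82 and 9.79 against 9.38, 9.995 and 9.83 (0.34 ± 0.39). Both were lowest in replicate 1 of each genotype. *Phc2* measured 11.25, 10.69 and 11.26 against 11.36, 10.05 and 10.15 (−0.55 ± 0.40). Knockout replicates 2 and 3 were its lowest arrays, a second probe set differed by −0.62, and without both replicate 1 arrays the difference was −0.87 ± 0.23 (limma adjusted p = 0.0662). *Scmh1* measured 8.65, 8.37 and 9.08 against 8.49, 7.65 and 8.16 (−0.60 ± 0.29). It was lower in knockout within each replicate number, by −0.17, −0.72 and −0.92, and all 3 of its probe sets were negative.

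The remaining subunits of variant complex 1 were *Yaf2* and *Kdm2b*. *Yaf2*, the paralogue of *Rybp*, measured 10.96, 10.33 and 10.14 against 10.52, 10.69 and 10.44 (0.07 ± 0.24, with a second probe set at −0.16). *Kdm2b*, which recruits variant complex 1 to CpG islands, measured 9.63, 9.61 and 9.54 against 10.03, 9.65 and 9.50 (0.13 ± 0.18), with knockout replicate 1 the highest array. Its second probe set was at −0.20. For both genes the wild-type and knockout values overlap.

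Medians by complex and role were mostly above 0. The median difference was 0.21 for the 11 subunits of complex 2 (7 above 0, 4 below) and 0.12 for the 18 of complex 1 (12 above, 6 below), against 0.0067 for all genes tested. It was 0.17 for the 14 core subunits of both complexes and 0.13 for the 15 accessory ones. Within complex 1 it was 0.077 for 8 core subunits and 0.24 for 10 accessory subunits. The median of each group per array, which is another quantity, had a pooled SD over arrays of 0.32 and 0.12. For the accessory subunits the median of gene differences was above 0 within each replicate number (0.24, 0.26 and 0.13). It was 0.083 with the mean of all probe sets. Their median per array, however, differed between genotypes by −0.033, 0.28 and 0.066 within replicate numbers 1, 2 and 3. The gap between complexes, −0.09, and that between core and accessory, 0.04, were smaller than the pooled SD over arrays of such gaps between medians per array (0.30 and 0.17). Leaving out 1 array moved the median of complex 2 to between −0.10 and 0.38, and that of complex 1 to between 0.04 and 0.19. Without wild-type replicate 1 the median of complex 2 was −0.10, and without knockout replicate 2 it was −0.013. The gap between core and accessory subunits went from −0.15 without knockout replicate 3 to 0.27 without knockout replicate 1.

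**Figure D3:**
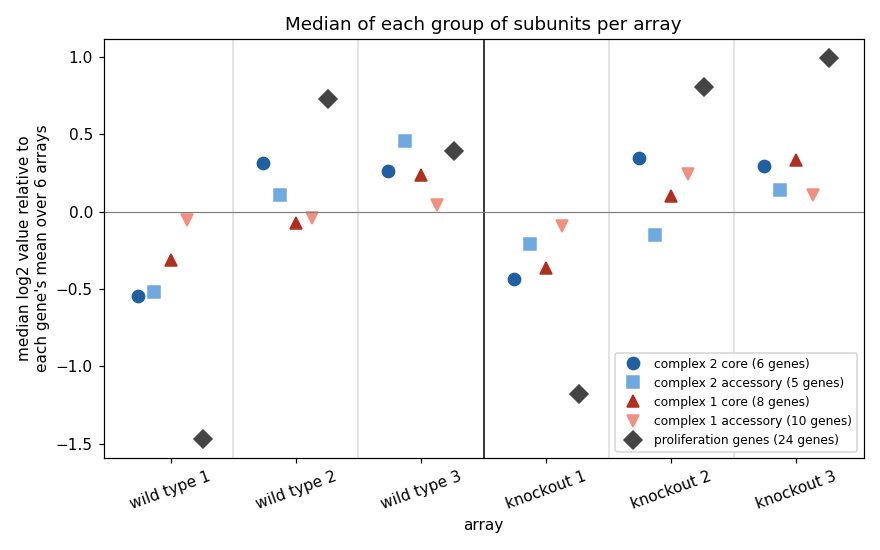
Points show, for each of the 6 arrays, the median log2 value of a group of genes relative to each gene's mean over the 6 arrays, for the 4 groups of subunits and for 24 proliferation genes. Every group is lowest in replicate 1 of each genotype. In wild type and knockout replicate 1 the proliferation genes are at −1.47 and −1.18 and complex 2 core genes at −0.55 and −0.43. Complex 2 accessory genes are at −0.52 and −0.21 there, and complex 1 core genes at −0.31 and −0.36. The accessory subunits of complex 1 stay between −0.09 and 0.24 over all arrays.

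Compared with all genes, the subunits were more often low and less often high in replicate 1 of both genotypes. In 16 of 29 subunits (55.2%) replicate 1 was below the mean of replicates 2 and 3 in both genotypes, against 20.8% of all genes, and in 5 (17.2%) it was above in both, against 41.7%. This grouping of arrays was chosen after their values were known, and replicate 1 is 1 array per genotype, so the shift of replicate 1 was not tested. The p-values of the fit without both replicate 1 arrays rest on the same choice. The 5 subunits that were lower by more than 1 in both genotypes were *Ezh2*, *Suz12*, *Mtf2*, *Bmi1* and *Pcgf5*. Those higher in both were *Ring1*, *Pcgf3*, *Cbx8*, *Phc2* and *Kdm2b*. Proliferation genes moved with the first group, as 23 of 24 were lower on both replicate 1 arrays, with median shifts of −1.95 (wild type) and −2.07 (knockout). For the 6 core subunits of complex 2 these medians were −0.68 and −0.80, and 5 of 6, all but *Ezh1*, were lower in both. For the 10 accessory subunits of complex 1 they were 0.0043 and −0.17, and 4 of 10 were lower in both. The 8 core subunits of complex 1 were at −0.47 and −0.54 (5 lower in both). The 5 accessory subunits of complex 2 were at −0.91 and −0.20 (2 lower in both). Such shifts were not particular to the subunits. The 14 histone H3 demethylases and Trithorax genes were at −0.48 and −0.67, and 10 of these (71.4%) were lower in both. The part of cell division in these values was not tested.

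Without both replicate 1 arrays, in a fit of 2 arrays against 2, limma called 3 of 29 subunits (10.3%), against 14.0% of all genes. *Cbx7* was higher in knockout (7.56% of all genes were), and *Ezh1* and *Aebp2* were lower (6.41%). In the same fit 12 of 29 subunits (41.4%) had an unadjusted p under 0.05, against 28.1% of all genes, and 21 (72.4%) did not overlap, against 55.3%. *Ezh2* was at 0.37 ± 0.16 (limma adjusted p = 0.203), *Suz12* at −0.19 ± 0.24, *Rnf2* at 0.55 ± 0.22 and *Bmi1* at 0.05 ± 0.16, and none of these passed. The proliferation list differed here too, with a median of 0.40 over 24 genes, of which 5 were called higher and 1 lower, against 7.56% and 6.41% of all genes. The array weights of limma, which fall as an array departs from the others of its genotype, were lowest for the replicate 1 arrays (0.24 and 0.33). With these weights limma called *Ezh1* (−1.43, limma adjusted p = 0.0288) and *Cbx6* (0.93, limma adjusted p = 0.0370). These are 2 of 29 subunits (6.9%), against 11.5% of all genes, and 12 of 29 had an unadjusted p under 0.05, against 28.3%.

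**Figure D4:**
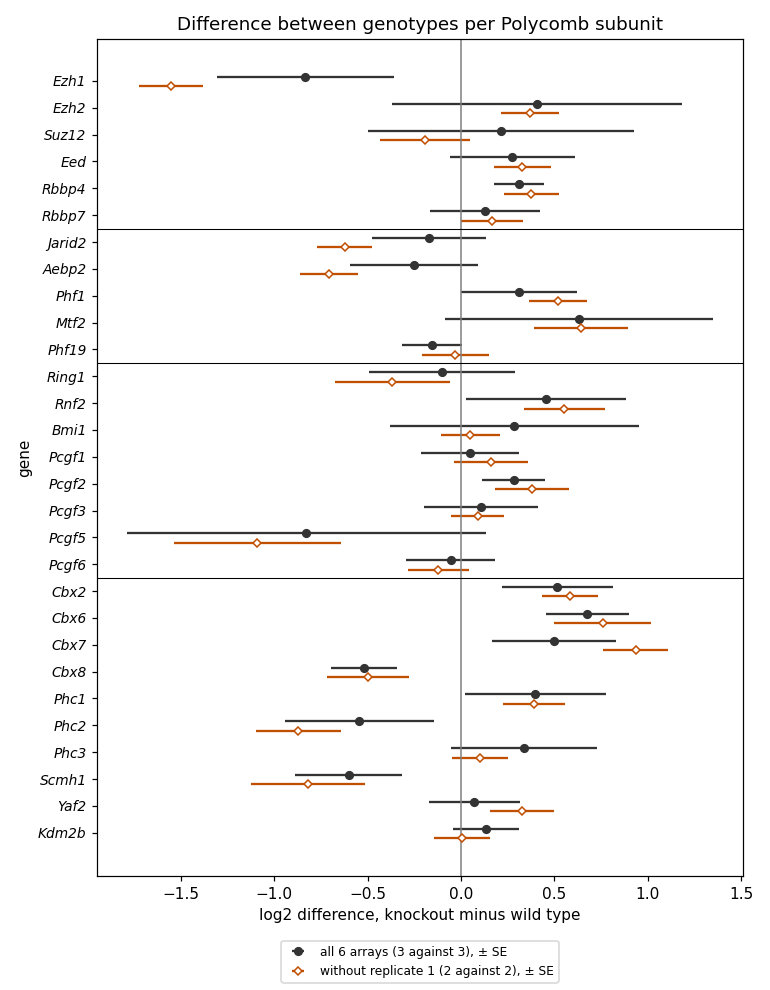
For each of the 29 subunits, ordered by role, filled circles give the log2 difference (knockout minus wild type) ± SE over all 6 arrays and open diamonds the same without both replicate 1 arrays. *Ezh1* moves from −0.83 to −1.55 and *Cbx7* from 0.50 to 0.93, and *Suz12* changes from 0.21 to −0.19.

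Partners of the complexes and opposing regulators gave no call over all 6 arrays either. Among 22 measured partners of the Polycomb complexes 0 passed by limma in either direction, and the median was −0.20, with 9 above 0 and 13 below. At an unadjusted p under 0.05 there was 1 of the 22 (6.68% of all genes), *Max*, a component of variant complex 1 with *Mga* and *E2f6*. It was at −0.84 ± 0.24, with knockout values of 8.04, 8.41 and 8.59 all below the wild-type range of 8.83 to 9.52. Of all genes, 4.38% were lower in knockout without overlap. *E2f6* was at −0.68 ± 0.31 and *Epop*, an inhibitory partner of complex 2, at −0.47 ± 0.21. Without both replicate 1 arrays limma called 1 of the 22 higher and 4 lower, against 7.56% and 6.41% of all genes. Of 10 deubiquitinases of histone H2A and their partners, 0 passed and the median was 0.11. An unadjusted p under 0.05 was found for 1 of the 10 (6.68% of all genes). This was *Bap1*, the catalytic subunit that removes the mark set by complex 1, at 0.46 ± 0.14 without overlap (5.56% of all genes were higher without overlap). *Asxl1*, its activator, was at 0.57 ± 0.25 and *Asxl3* at −1.06 ± 0.66. Of 14 histone H3 demethylases and Trithorax genes, which counteract Polycomb, 0 passed and the median was 0.15. Here too 1 gene had an unadjusted p under 0.05 (6.68% of all genes). That gene, *Dpy30*, was at 0.97 ± 0.38, *Rbbp5* at 0.57 ± 0.27 and *Pagr1a* at 0.43 ± 0.23, and without both replicate 1 arrays 4 of these 14 were called higher and 0 lower, against 7.56% and 6.41% of all genes.

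Developmental genes that Polycomb is known to repress in many cell types had a median near 0. Many of them were dim, such as *Olig2* (3.03 to 3.41 over the arrays) and *Otx2* (3.36 to 3.82), against array medians of 5.57 to 5.68. Differences are shrunk at such values, so a median near 0 says little about these genes. Among 26 such genes the median difference was 0.03, 14 being positive and 12 negative, and limma called 0 over all 6 arrays. At an unadjusted p under 0.05 there were 0 higher (4.01% of all genes) and 5 lower (19.2%, against 2.67% of all genes), with 3 of these *Gata6* (−2.04 ± 0.60), *Pax9* (−1.68 ± 0.52) and the cell cycle inhibitor *Cdkn2b* (−0.64 ± 0.20), and the others were *Nkx6-1* and *Eomes*. The knockout values of *Gata6*, 6.08, 4.33 and 5.14, all lay below the wild-type values of 6.23, 7.54 and 7.91. The largest positive differences were those of *Lhx9* (2.30 ± 1.88) and *Cdkn2a* (1.19 ± 0.76), whose groups overlap. Without both replicate 1 arrays 1 of the 26 was called higher and 3 lower, against 7.56% and 6.41% of all genes. The one called higher was *Lhx9* (3.26 ± 0.36, limma adjusted p = 0.0103), while *Cdkn2a* did not pass (2.19 ± 0.61, limma adjusted p = 0.0793).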

How the data were processed

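RNA of 3 wild-type and 3 *Hotair* knockout samples was measured on 1 array each. The deposited values are on the log2 scale and, per the submitters' processing notes, were made by the authors with the probe set method RMA (R version 2.11.1). RMA equalises intensity distributions over arrays, which hides a change in total RNA, and it shrinks differences of dim probe sets. Array medians lay between 5.57 and 5.68. The number of arrays limits the precision: the 95% interval of a subunit reached from 0.33 (*Rbbp4*) to 2.37 (*Pcgf5*) on either side.

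Of 45037 probe sets that are not controls, 34945 had 1 gene, 932 several and 9160 none in a platform annotation table. For each of 18193 genes the probe set annotated to it alone that had the highest mean was used, and 77 probe sets stood for the 29 subunits. Of the single-gene probe sets, 99.4% matched the GRCm38.p6 gene table by Entrez identifier. The genotype test was limma's (version 3.58.1, R 4.3.3; lmFit, eBayes, genotype only, Benjamini-Hochberg over all genes at 0.05). Promoters were searched with Python 3.11.15.

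The genotypes share replicate numbers. Deviations from the genotype means correlated over genes at 0.51, 0.39 and 0.35 for numbers 1, 2 and 3, so the numbers were taken to pair the arrays, although wild-type replicate 3 correlated more with knockout replicate 2 (0.43). This pairing therefore rests mainly on replicate 1.

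Named were all subunits and, in each other pathway list, the genes with the smallest p. Marker genes were chosen for mention after their values were seen, as were *Nkx6-1*, *Eomes*, *Lhx9*, *Cdkn2a*, *Olig2* and *Otx2*. The subunits and lists were chosen with earlier results of these data known. Alternatives were the replicate block, other priors, array weights, filters on dim genes, renormalisation, other probe sets, leaving out arrays and a replicate 1 term.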

Additional observations from a re-analysis of the deposited data

How the results depend on the processing

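The absence of calls held under every alternative run except 2. Array weights called 2 of 29 subunits (6.9%, against 11.5% of all genes), and the fit without both replicate 1 arrays called 3 (10.3%, against 14.0%). At an unadjusted p under 0.05 the count of subunits was 5 with the replicate block (11.1% of all genes), 6 with a term for replicate 1 (14.9%), 12 with array weights (28.3%) and 12 without both replicate 1 arrays (28.1%). It was 1 with trended robust priors (5.72%), with either filter on dim genes (7.02% and 7.06%) and with the mean of all probe sets (6.20%), and 0 to 8 when 1 array was left out (2.35% to 15.7%). Subunits with groups that do not overlap numbered 21 without both replicate 1 arrays, where 55.3% of all genes did so, and 4 to 16 when 1 array was left out (14.6% to 33.0%). The gap between core and accessory medians was −0.21 within replicate number 1 and −0.15 to 0.27 when 1 array was left out. The replicate block changed no call at an adjusted p under 0.05.

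Signs changed with the choice of probe set. With the mean of all probe sets of a gene *Kdm2b* was at −0.031, *Pcgf3* at −0.072, *Pcgf6* at 0.0070, *Phf19* at 0.10 and *Yaf2* at −0.047, and with the probe set of largest SD *Kdm2b* was at −0.20, *Pcgf6* at 0.24 and *Phf19* at 0.36. Array weights gave −0.0041 for *Kdm2b* and −0.040 for *Suz12*, and *Suz12* was at −0.19 without both replicate 1 arrays. When 1 array was left out the differences ranged from −0.38 to 0.71 for *Bmi1*, −0.27 to 1.04 for *Ezh2*, −0.47 to 0.014 for *Jarid2*, −0.018 to 0.25 for *Kdm2b*, −0.17 to 0.27 for *Pcgf1*, −0.14 to 0.34 for *Pcgf3* and −0.25 to 0.076 for *Pcgf6*. They ranged from −0.074 to 0.55 for *Phc3*, −0.076 to 0.37 for *Rbbp7*, −0.46 to 0.27 for *Ring1*, −0.54 to 0.74 for *Suz12* and −0.10 to 0.31 for *Yaf2*. In all these refits 16 subunits kept their sign, among them *Ezh1*, *Mtf2*, *Rnf2*, *Pcgf5* and the Cbx genes. Within replicate number 1 alone, however, *Ezh1* was at 0.60 and *Cbx7* at −0.38. The replicate block, the other priors, the filters on dim genes and the replicate 1 term leave a gene's difference unchanged, so they could not turn a sign. The causes were not tested.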
